A study of Mus musculus with 8 samples.

Results

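The 10 genes described here form the core of the circadian clock. They are the activators Arntl (which encodes BMAL1), Clock and Npas2, the repressors Per1, Per2, Per3, Cry1 and Cry2, and the nuclear receptors Nr1d1 and Nr1d2 (REV-ERBα and REV-ERBβ). The members were chosen by symbol, and all 10 were among the 14012 genes of the count table.

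In the clock, BMAL1 pairs with CLOCK or with its relative NPAS2, binds E-box DNA and switches on the Per, Cry and Nr1d genes. PER and CRY proteins then return to the nucleus and hold the activators back, while the REV-ERBs compete with ROR receptors and repress Arntl. In skeletal muscle this loop runs in the fibres themselves and the transcripts of its arms peak at different hours of the day, so a level taken at a single time is a snapshot of the cycle.

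RNA was taken from the quadriceps femoris (QF) of 4 knockout and 4 control mice, with 1 library per mouse, to ask how the muscle transcriptome responds to loss of the mitochondrial import co-chaperone GRPEL1. The knockouts, labelled Grpel1 smk -/- where the study writes skm, carried a floxed Grpel1 gene and the transgene HSA-Cre-ERT2. This is a Cre recombinase made under the human α-skeletal actin promoter and switched on by tamoxifen. Tamoxifen was injected on 5 days from 5 weeks of age, and the end point was reached within 5 weeks of induction. The controls were labelled Grpel1 flox/flox, while the methods call them wild type, and the study uses that label for untreated littermates and, with a suffix, for floxed mice with only the Cre or only tamoxifen. Which of these the libraries came from is not given in the sources used here. The reporting summary of the study gives male mice, and the methods give blastocysts of C57BL/6NCrl and a cycle of 12 hours light and 12 hours dark. The hour at which muscle was taken is not given in the sources used here, and its part in the differences was not tested.

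The libraries held 16017565 to 20361144 counts, and the 10 clock genes had 14 to 3535 counts each per library. Values are CPM, counts scaled to a common library size, with library sizes adjusted by TMM, which corrects for composition and gave factors of 0.747 to 0.844 for control and 1.19 to 1.33 for knockout libraries. Grpel1 itself had 64.1 to 71.2 CPM in control muscle and 59.9 to 71.9 CPM in the libraries labelled knockout, a log2 fold change of -0.07 (edgeR adjusted p = 0.487) that turned to 0.61 when libraries were scaled by their totals alone. Which exons the floxed allele loses is not given in the sources used here and the count covers all exons, so this count does not check the labels. The study itself reports less GRPEL1 protein in QF of the knockout mice than of controls, by immunoblot and by immunostaining. The fibre markers Acta1, Ckm, Myh4, Myh1, Myh2, Ttn, Mb and Tnnt3 summed to 191100 to 244100 CPM in control muscle and 64990 to 92960 CPM in knockout muscle, and none was at 0 in any library. In a bulk sample, fewer cells of a type and less RNA per cell cannot be told apart.

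Some promoters of clock genes held letters through which the loop is described as closing, and binding was not measured. RefSeq windows of 300 bases, from 250 before to 50 after an annotated start on GRCm38.p6, were found for 9 of the 10 clock genes and searched on both strands. The motifs were the E-box CACGTG, held by 7.15% of all 32851 windows, its variant CACGTT (4.68%), the D-box TTATGNAA (3.38%), which PAR bZIP factors such as DBP and the repressor NFIL3 bind, and the ROR element letters TAGGTCA (2.61%) or TGGGTCA (3.98%), which ROR and REV-ERB receptors share. No search motif overlapped another in the stretches shown. They are printed 5′ to 3′ on the strand of the gene, because they let the members be compared by which letters lie before their starts, and capitals mark the matches.
Per1 (chr11:69098755-69098948, plus strand): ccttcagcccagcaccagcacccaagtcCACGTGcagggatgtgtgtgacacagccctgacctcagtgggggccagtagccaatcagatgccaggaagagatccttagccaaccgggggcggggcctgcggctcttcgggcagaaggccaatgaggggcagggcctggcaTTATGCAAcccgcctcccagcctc
Per3 (chr4:151044788-151044898, minus strand): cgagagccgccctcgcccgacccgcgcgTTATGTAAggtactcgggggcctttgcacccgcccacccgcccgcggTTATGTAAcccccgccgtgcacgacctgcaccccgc
Cry1 (chr10:85185081-85185161, minus strand): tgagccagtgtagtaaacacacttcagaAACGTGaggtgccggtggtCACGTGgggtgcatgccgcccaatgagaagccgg
Cry2 (chr2:92434202-92434263, minus strand): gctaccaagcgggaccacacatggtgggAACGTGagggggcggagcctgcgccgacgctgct
Nr1d1 (chr11:98775378-98775433, minus strand): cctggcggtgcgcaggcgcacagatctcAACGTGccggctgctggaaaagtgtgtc
Arntl (chr7:113207518-113207547, plus strand): cgacatttagggaaggcagaaagTAGGTCA
Ciart (chr3:95882239-95882372, minus strand): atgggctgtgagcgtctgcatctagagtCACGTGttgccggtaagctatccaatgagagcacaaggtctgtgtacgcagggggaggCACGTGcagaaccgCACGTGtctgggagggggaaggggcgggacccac

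Per1 held an E-box that began 166 bases before the start and a D-box that began 24 before it. Per3 held 2 D-boxes, at 205 and 158 bases before the start, and no E-box in this window. Cry1 held an E-box at 60 bases before the start with a variant at 79, while Cry2 had a variant at 166 and Nr1d1 a variant at 28, each lying on the opposite strand, so that the strand printed reads AACGTG. In Arntl the ROR letters lay in transcribed sequence, from base 31 to base 37 after the start in the second of its 2 windows. Ciart, a repressor of the loop that is described with the outputs, held 3 E-boxes, at 116, 58 and 44 bases before the start. The windows of Clock, Npas2 and Nr1d2 held none of these letters, which says only that these letters are not in these windows, and no window was at hand for Per2.

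Across the 10 clock genes, the activators Arntl and Npas2 and the repressor Nr1d1 fell in the knockouts, while Per2, Per3, Cry1 and Cry2 rose. Clock, Per1 and Nr1d2 did not pass the threshold, an adjusted p under 0.01 in edgeR's quasi-likelihood test over all genes. The call thus covered 7 of 10 clock genes against 44.7% of all genes, with 4 higher against 23.6% of all genes and 3 lower against 21.1%. The CPM ranges of the groups did not overlap for 7 of the 10 clock genes, and for 53.4% of all genes. Their median absolute log2 fold change was 0.81 beside 0.47 over all genes, and their median signed value was 0.11 beside 0.07. With libraries scaled by their totals alone, 7 clock genes were called higher and 3 lower, beside 8498 and 873 of all genes (3303 and 2962 with TMM), because that scaling moved the log2 fold change of the median gene to 0.73.

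**Figure D1:**
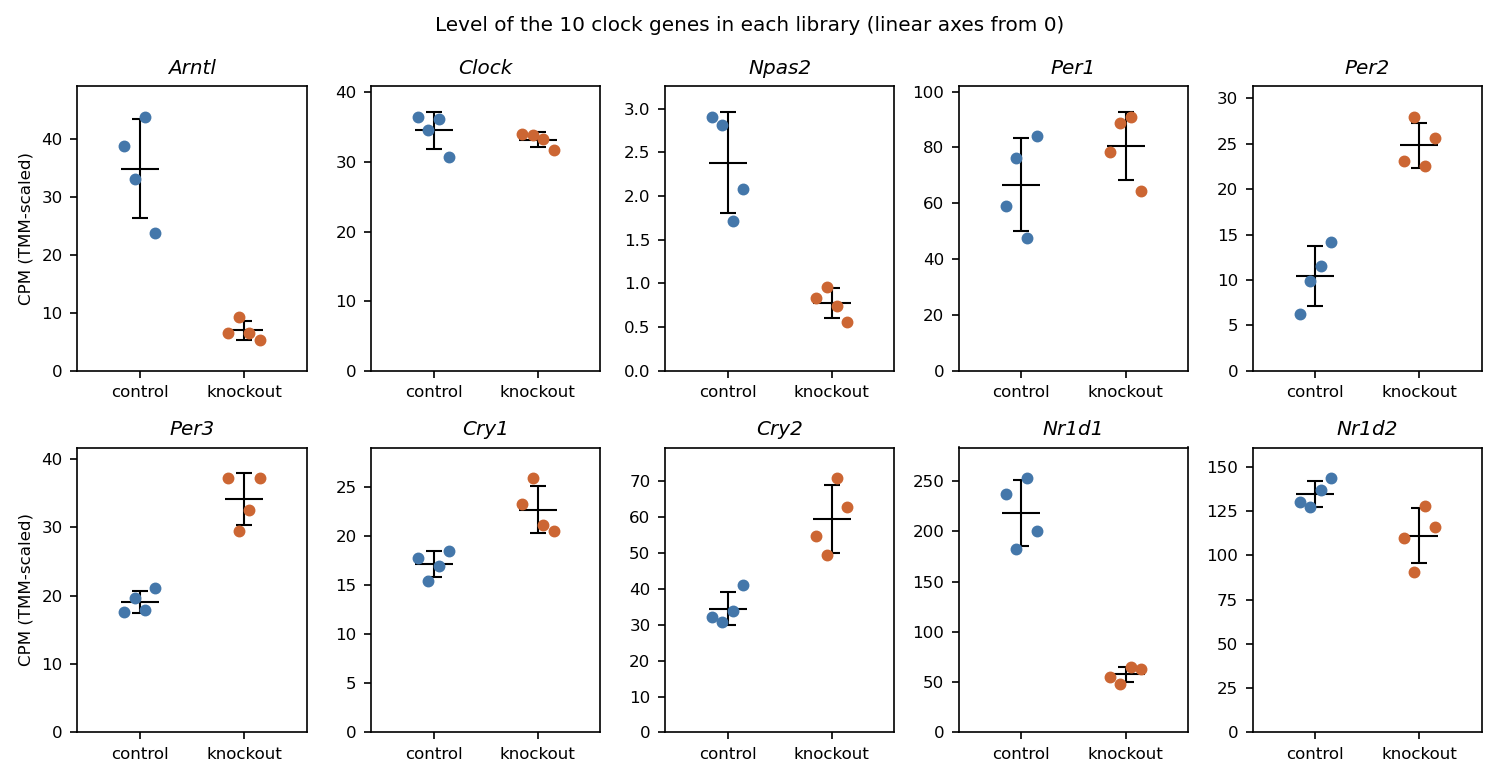
Level of each clock gene in CPM (linear axes from 0) in the 4 control and 4 knockout libraries; points are libraries, the horizontal mark is the mean and the bars are the SD. Arntl, Npas2 and Nr1d1 sit lower in every knockout library than in any control, Per2, Per3, Cry1 and Cry2 sit higher, and the ranges of Clock, Per1 and Nr1d2 overlap.

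Arntl (Entrez Gene 11865, chr7:113207465-113314126 of GRCm38, plus strand) encodes BMAL1, the activator without which the mammalian clock stops. It had 38.7, 33.1, 43.8 and 23.8 CPM in control replicates 1 to 4 and 6.59, 9.34, 6.60 and 5.37 CPM in knockout replicates 1 to 4. The highest knockout library was far below the lowest control library, control replicate 4. The mean was 34.8 ± 8.58 CPM in control muscle and 6.98 ± 1.68 CPM in knockout muscle (SD, n = 4 each), 4.995-fold lower. The log2 fold change was -2.32 (SE 0.21, edgeR adjusted p = 1.03e-05), lower than that of all but 1.34% of the genes, and it stayed between -2.502 and -1.64 in 21 alternatives.

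Clock (Entrez Gene 12753, chr5:76209868-76304792, minus strand), the usual partner of BMAL1, had nearly level values. There were 36.5, 34.6, 36.2 and 30.8 CPM in control muscle and 34.0, 33.8, 33.3 and 31.6 CPM in knockout muscle, and the 2 ranges overlapped. Its log2 fold change was -0.06 (SE 0.07, edgeR adjusted p = 0.511), and 0.61 (adjusted p = 1.39e-05 in edgeR) when libraries were scaled by totals alone, which is -0.12 relative to the median of all genes on that scale.

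Npas2 (Entrez Gene 18143, chr1:39194272-39363240, plus strand), which can stand in for CLOCK, was the least abundant clock gene. It had 36, 43, 24 and 33 counts in control muscle and 20, 21, 18 and 14 counts in knockout muscle. These came to 2.91, 2.81, 1.72 and 2.08 CPM against 0.834, 0.962, 0.743 and 0.556 CPM, with every knockout library below the controls. The mean was 3.08-fold lower in the knockouts, a log2 fold change of -1.62 (SE 0.25, edgeR adjusted p = 0.000352). Of the 3 activators, then, the partner that was already low in the controls fell together with Arntl, while Clock did not pass the test.

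Per1 (Entrez Gene 18626, chr11:69098956-69109960, plus strand), a repressor that also answers quickly to hormones and cAMP, varied widely within groups. Its levels were 59.1, 76.3, 47.5 and 83.9 CPM in control muscle and 78.4, 88.8, 91.1 and 64.4 CPM in knockout muscle. The ranges overlapped, and the log2 fold change of 0.27 (SE 0.17, edgeR adjusted p = 0.202) did not pass the test, though it reached 0.93 (adjusted p = 0.00195) with totals alone, 0.19 above the median of all genes there.

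Per2 (Entrez Gene 18627, chr1:91415982-91459328, minus strand), a repressor of the activator pair, had 6.30, 9.89, 11.6 and 14.2 CPM in control muscle and 23.1, 28, 22.6 and 25.6 CPM in knockout muscle. The controls spanned 2.25-fold, with replicate 1 the lowest, and the knockouts only 1.24-fold. The mean rose from 10.5 ± 3.30 to 24.8 ± 2.502 CPM (SD, n = 4 each), 2.37-fold, with a log2 fold change of 1.23 (SE 0.20, edgeR adjusted p = 0.000419). Leaving out each library in turn gave 1.06 to 1.41.

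Per3 (Entrez Gene 18628, chr4:151003655-151044665, minus strand), the third period gene, had the smallest spread of the period genes in the controls. It had 17.6, 19.6, 17.9 and 21.0 CPM in control muscle and 37.1, 29.4, 32.4 and 37.2 CPM in knockout muscle, with no overlap. The mean was 1.79-fold higher, a log2 fold change of 0.84 (SE 0.10, edgeR adjusted p = 5.21e-05).

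The cryptochromes, which repress the activators together with the PER proteins, both rose. Cry1 (Entrez Gene 12952, chr10:85131700-85185054, minus strand) had 17.7, 15.4, 16.9 and 18.5 CPM in control muscle and 23.2, 25.9, 21.1 and 20.5 CPM in knockout muscle. The groups did not overlap, but the step was small, 1.32-fold with a log2 fold change of 0.40 (SE 0.10, edgeR adjusted p = 0.00489). Leaving out control replicate 2, control replicate 3, knockout replicate 1 or knockout replicate 2 ended this call, with edgeR adjusted p of 0.0170, 0.0139, 0.0148 and 0.0138 and log2 fold changes of 0.36, 0.40, 0.38 and 0.32. With the mean log2 CPM of the adipocyte markers as a covariate the value was 0.36 (edgeR adjusted p = 0.0236).

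Cry2 (Entrez Gene 12953, chr2:92403646-92434069, minus strand) had 32.2, 30.8, 33.7 and 41.2 CPM in control muscle and 54.7, 49.5, 70.9 and 62.8 CPM in knockout muscle. Each knockout library lay above every control, and the mean was 1.73-fold higher, a log2 fold change of 0.79 (SE 0.13, edgeR adjusted p = 0.000447). The span of D930015M05Rik on the other strand covers 23417 bases of the gene, and it had 0.367 CPM in control muscle and 0.596 CPM in knockout muscle, far below Cry2. Whether the counting used strand is not stated.

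Nr1d1 (Entrez Gene 217166, chr11:98767932-98775377, minus strand), which encodes the heme-binding repressor REV-ERBα, was the most abundant clock gene in the controls. It had 237, 182, 253 and 200 CPM there and 55.2, 48.2, 64.6 and 63.2 CPM in knockout muscle. The groups were wide apart, and the mean fell from 218 ± 32.7 to 57.8 ± 7.65 CPM (SD, n = 4 each), 3.77-fold lower. Its log2 fold change was -1.92 (SE 0.13, edgeR adjusted p = 1.51e-06), the smallest adjusted p of the 10 clock genes. The gene shares 1075 bases with Thra, a thyroid hormone receptor gene on the other strand, which had 104 CPM in control muscle and 88.7 CPM in knockout muscle, a log2 fold change of -0.23 (SE 0.06, edgeR adjusted p = 0.0110) that turned to 0.43 with totals alone.

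Nr1d2 (Entrez Gene 353187, chr14:18204056-18239106, minus strand), its paralog REV-ERBβ, had 130, 127, 137 and 144 CPM in control muscle and 110, 90.8, 128 and 116 CPM in knockout muscle. Only knockout replicate 3 reached into the range of the controls. The log2 fold change was -0.28 (SE 0.10, edgeR adjusted p = 0.0374), and an exact two-sided permutation test over the 70 assignments of libraries gave p = 0.0571, where the smallest possible is 0.0286. Without knockout replicate 3 it was -0.38 (edgeR adjusted p = 0.00861), and with totals alone it turned to 0.39 (adjusted p = 0.00369), -0.35 relative to the median of all genes on that scale. In these libraries the REV-ERB paralogs thus gave unequal differences.

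**Figure D2:**
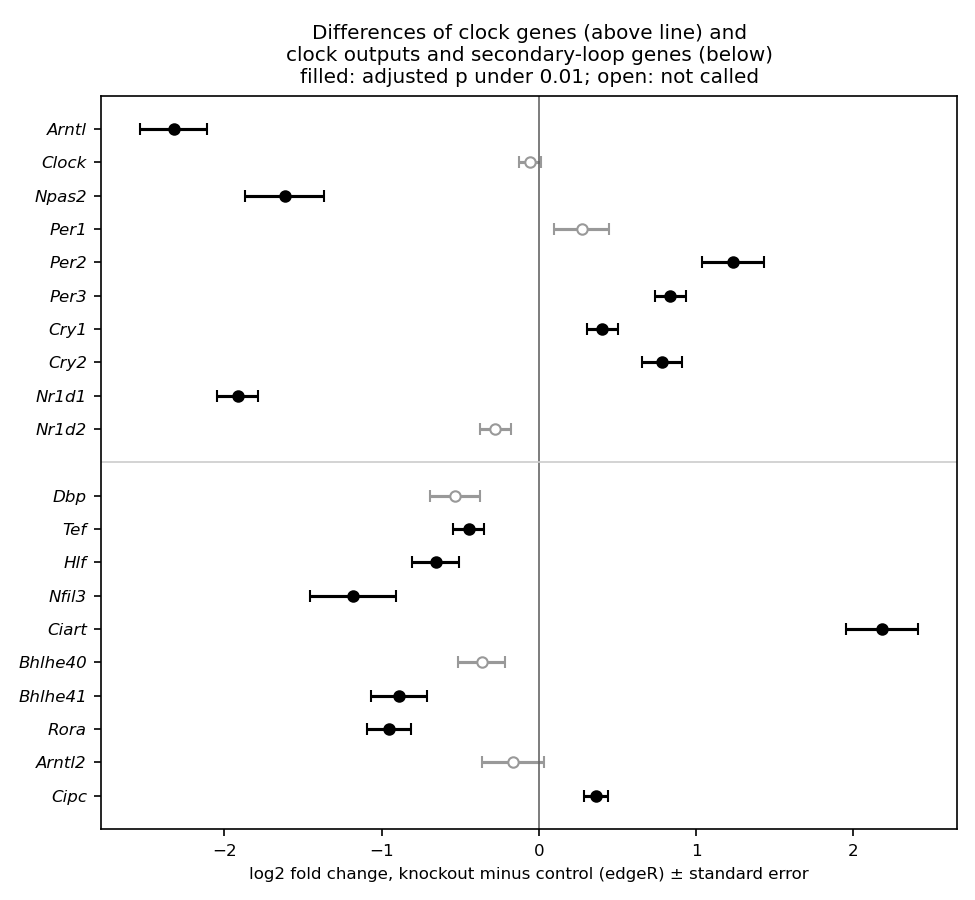
Log2 fold change (knockout minus control, edgeR) with its SE for the 10 clock genes above the line and 10 clock output and secondary-loop genes under it; filled points have an adjusted p under 0.01. Arntl (-2.32), Nr1d1 (-1.92) and Npas2 (-1.62) lie farthest left and Ciart (2.18) and Per2 (1.23) farthest right; with libraries scaled by totals alone the values of Clock, Nr1d2, Dbp, Tef, Hlf, Bhlhe40 and Arntl2 turn positive.

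To set the genes against each other, levels were taken per length, as counts per kilobase of exon scaled to library size (RPKM), computed from the deposited counts. In the controls the order was Nr1d1 (78.9 RPKM), Nr1d2 (29), Per1 (14.2), Arntl (12), Cry2 (8.62), Cry1 (5.68), Clock (3.48), Per3 (3.15), Per2 (1.80) and Npas2 (0.569). In the knockouts it was Nr1d2 (23.9 RPKM), Nr1d1 (20.9), Per1 (17.2), Cry2 (14.9), Cry1 (7.51), Per3 (5.63), Per2 (4.25), Clock (3.34), Arntl (2.40) and Npas2 (0.185). Arntl moved from the fourth place to the ninth, under Clock, although its knockout range still overlapped that of Clock. The ranges of Nr1d2, Nr1d1, Per1 and Cry2 overlapped from each to the next in the knockouts, whereas in the controls Nr1d1 stood apart above Nr1d2, and Nr1d2 above Per1. In the controls, the neighbours Per1 and Arntl, Arntl and Cry2, and Clock and Per3 had overlapping ranges, and the other 6 neighbouring pairs did not.

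Ratios of related clock genes within a library do not depend on how libraries are scaled. They were taken as log2 ratios of counts with 0.5 added, with no test. Nr1d1 to Nr1d2 was 0.86, 0.52, 0.89 and 0.48 in the controls and -0.99, -0.91, -0.98 and -0.88 in the knockouts. The ratio was lower in all 4 knockouts, with a difference of means of -1.63. It compares counts, not levels per length. Clock to Npas2 rose from 3.87 ± 0.35 to 5.41 ± 0.28 (SD, n = 4 each), and Per1 to Per2 dropped from 2.69 ± 0.51 to 1.69 ± 0.28, both with no overlap.

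Arntl and the output gene Dbp usually peak far apart in the day. Their log2 ratio was -0.10, 0.14, 0.29 and -0.85 in the controls and -1.85, -1.12, -1.99 and -2.63 in the knockouts, with no overlap and a difference of means of -1.77. Arntl to Nr1d1 is a ratio of an activator to a repressor of its transcription, and it overlapped between the groups, at -2.67 ± 0.28 and -3.07 ± 0.51, since both genes were lower in the knockouts. Per2 to Per3 (-0.91 ± 0.42 and -0.45 ± 0.27) and Cry1 to Cry2 (-1.002 ± 0.12 and -1.38 ± 0.37) overlapped too. In all, 4 of the 7 ratios had no overlap, and the same 4 with 5 added in place of 0.5. For single genes, the CPM ranges of the groups did not overlap for 53.4% of all genes. No such share was taken over gene pairs, so the count of ratios is a description.

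**Figure D3:**
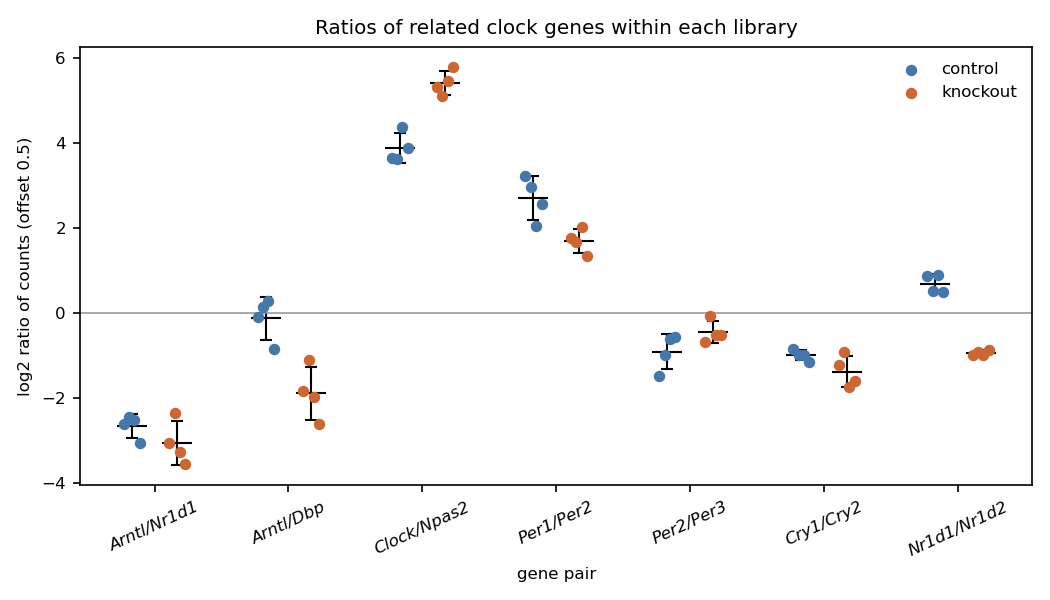
Log2 ratio of the counts of 7 gene pairs within each library, with 0.5 added to each count; points are libraries, marks are means and bars are SDs. Arntl/Dbp, Per1/Per2 and Nr1d1/Nr1d2 lie lower and Clock/Npas2 higher in every knockout library than in any control.

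The mice of a group also differed from each other. As the SD of log2 CPM with a prior count of 2, the spread of Per2 was 0.49 in the controls and 0.14 in the knockouts, that of Arntl 0.38 and 0.33, that of Per1 0.37 and 0.23 and that of Npas2 0.35 and 0.29. Npas2 had only 14 to 43 counts per library, so counting error adds to its spread. The median over the 12464 genes with at least 1 CPM on average, not matched for abundance, was 0.16 in the controls and 0.15 in the knockouts. In the controls, Per2 spread more than 91.2% of those genes and Arntl more than 85.1%. Clock spread less, with 0.11 in the controls and 0.05 in the knockouts, as did Per3 (0.12 and 0.16) and Cry1 (0.11 and 0.15) in the controls. Nr1d2 had 0.08 in the controls and 0.21 in the knockouts, Cry2 0.19 and 0.23, and Nr1d1 0.22 and 0.20. What the spread reflects was not tested.

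Control replicate 4 had the lowest Arntl and Clock of its group and the highest Per1, Per2, Per3, Cry1, Cry2 and Nr1d2. Its Arntl lay 0.51 under the group mean on the log2 scale and its Per2 0.49 above. Control replicate 1 had the lowest Per2 of the controls, 0.67 under the mean. Among the knockouts, replicate 2 had the highest Arntl, Npas2, Per2 and Cry1 and the lowest Per3, Cry2, Nr1d1 and Nr1d2. Replicate 4 had the lowest Arntl, Clock, Npas2, Per1 and Cry1 of the knockouts.

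**Figure D4:**
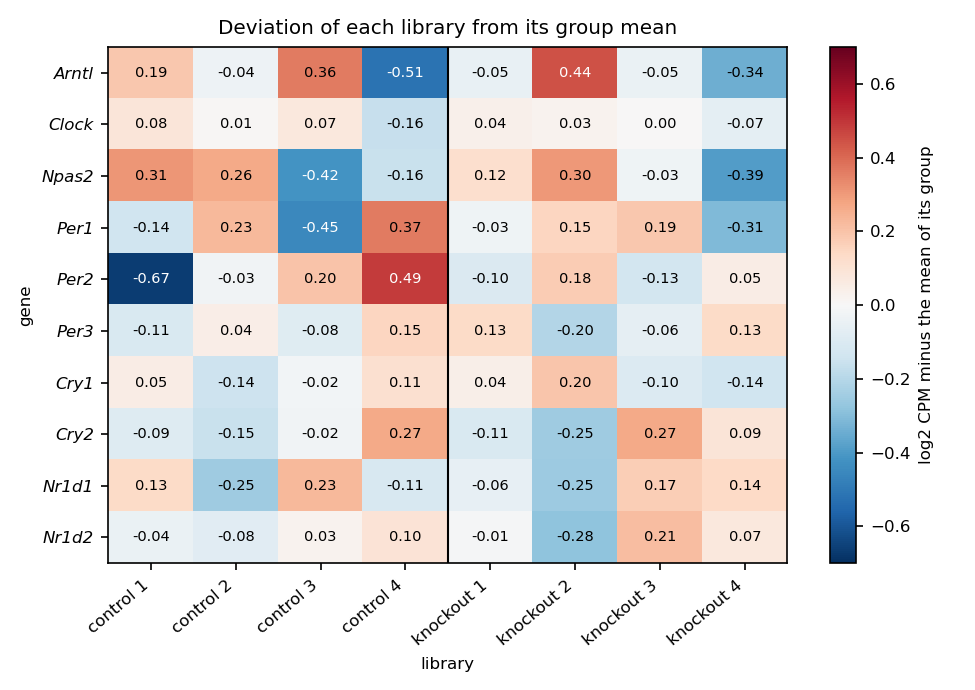
Log2 CPM of each clock gene minus the mean of its group, by library; the vertical line parts controls from knockouts, red is above and blue below the group mean. Control 4 combines the lowest Arntl (-0.51) with the highest Per2 (0.49) of its group. Knockout 2 combines the highest Arntl (0.44) with the highest Per2 (0.18) and the lowest Nr1d2 (-0.28) of its group.

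Across the 8 libraries, the deviations of Arntl from the group means had Pearson's r of 0.86 with those of Clock and 0.35 with Npas2. With the repressors r was -0.34 for Per1, -0.30 for Per2, -0.88 for Per3, 0.32 for Cry1 and -0.70 for Cry2. With Nr1d1 it was 0.02 and with Nr1d2 -0.61. Of the other pairs, Cry2 and Nr1d2 had 0.90, Nr1d1 and Nr1d2 0.65, and Per1 and Nr1d1 -0.70. These r values share libraries and depth, and the pairs without Arntl were picked from 45 pairs after their values were seen. They are a description. Over all genes with at least 1 CPM, the deviations most like those of Arntl were those of Hook3 (r = 0.99), Nfkb1 (0.99), Dnm1l (0.98), Mpv17l2 (0.97) and Actr10 (0.97). For Nr1d1 they were Odf2l (0.99), Eea1 (0.99), A230046K03Rik (0.98), Ccndbp1 (0.97) and Ube2r2 (0.97). No other clock gene was among these 5 for either. Both sets are the top of a search over 12464 genes in 8 libraries, were not tested, and are a description too.

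Genes of the outputs and the secondary loop are driven by the core and feed back on it. Of 11 listed, 10 were measured, 2 were called higher (Ciart and Cipc) and 5 lower (Tef, Hlf, Nfil3, Bhlhe41 and Rora), against 2 and 0 with totals alone (0 lower there also at an unadjusted p under 0.05), a call in 70% of them beside 44.7% of all genes, and the median of their log2 fold changes was -0.49. Ciart, a repressor of the CLOCK and BMAL1 pair, had 4.04, 2.29, 2.15 and 4.22 CPM in control muscle and 11.1, 16.4, 15 and 15.2 CPM in knockout muscle. This was the largest step of the list, 4.54-fold with a log2 fold change of 2.18 (SE 0.23, edgeR adjusted p = 2.38e-05). Cipc, which encodes another CLOCK-binding repressor, rose by 0.36 on the log2 scale (edgeR adjusted p = 0.00244), but without knockout replicate 4 it was at 0.34 (edgeR adjusted p = 0.0166).

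Of the measured outputs with a promoter window, Ciart, Tef, Bhlhe41 and Cipc held an E-box. Of these, Ciart and Cipc were called higher and Tef and Bhlhe41 lower. Nfil3 held the ROR letters TAGGTCA on the opposite strand, and the windows of Dbp, Hlf, Rora and Arntl2 held none of the letters searched.

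Rora, which encodes a receptor that activates Arntl, had 117, 76.6, 98.0 and 113 CPM in control muscle and 55.8, 48.0, 59.4 and 45.9 CPM in knockout muscle, 1.94-fold lower (log2 fold change -0.95, edgeR adjusted p = 0.000216). The groups did not overlap, and with totals alone the value stayed negative at -0.29 but lost its call (edgeR adjusted p = 0.0634).

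The PAR bZIP activators Dbp, Tef and Hlf, which act on D-boxes, had negative log2 fold changes with TMM that turned to 0.13, 0.22 and 0.01 with totals alone. Dbp had 41.5, 29.98, 35.9 and 42.8 CPM in control muscle and 23.8, 20.4, 26.3 and 33.3 CPM in knockout muscle, which overlapped. Its log2 fold change of -0.53 (edgeR adjusted p = 0.0145) was not called. It was at -0.63 (edgeR adjusted p = 0.00820) without control replicate 2 and -0.69 (edgeR adjusted p = 0.00381) without knockout replicate 4. DESeq2 called Dbp on all libraries, at -0.58 (DESeq2 adjusted p = 0.00196). Tef, at 300 to 340 CPM in control muscle and 194 to 267 CPM in knockout muscle, had a log2 fold change of -0.45 (edgeR adjusted p = 0.00313), and its adjusted p was 0.0105, 0.0119 and 0.0108 in edgeR without control replicate 3, knockout replicate 1 and knockout replicate 4. Hlf fell from 14.7 ± 2.44 to 9.30 ± 1.42 CPM (log2 fold change -0.66, edgeR adjusted p = 0.00335).

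Nfil3, the repressor that competes with them for D-boxes, had 46.5, 63.8, 78.0 and 29.3 CPM in control muscle and 23.2, 31.9, 21.6 and 19.3 CPM in knockout muscle. The ranges overlapped through control replicate 4 and knockout replicate 2. The log2 fold change was -1.18 (SE 0.27, edgeR adjusted p = 0.00386), and the adjusted p was 0.0131, 0.0103, 0.0104 and 0.0120 in edgeR without control replicates 2 and 3 and knockout replicates 3 and 4, each left out alone. Bhlhe41 (DEC2), a repressor at E-boxes, fell by 0.89 on the log2 scale (edgeR adjusted p = 0.00166). Its paralog Bhlhe40 (DEC1) was at -0.36 (edgeR adjusted p = 0.0569), at -0.50 (edgeR adjusted p = 0.00236) without control replicate 2, and at 0.31 with totals alone. Arntl2, a paralog of Arntl, had 1.79 to 2.18 CPM in control muscle and 1.28 to 2.09 CPM in knockout muscle, with a log2 fold change of -0.16 (edgeR adjusted p = 0.50), 0.51 with totals alone.

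Enzymes and cofactors that modify clock proteins had a median absolute log2 fold change of 0.29. Of 21 listed, 20 were measured, 4 were called higher and 6 lower (15 and 1 with totals alone), a call in 50% of them, near the 44.7% of all genes, and the median of their log2 fold changes was -0.06, in a range from -1.02 to 0.64. Sirt1, a deacetylase tied to BMAL1 and PER2, had the largest rise, 1.56-fold (log2 fold change 0.64, edgeR adjusted p = 0.000380). Prkaa2, the catalytic AMPK subunit that prevails in muscle and whose kinase marks cryptochromes for breakdown, had the largest drop, from 286 ± 29.4 to 141 ± 17.6 CPM (SD, n = 4 each; log2 fold change -1.02, edgeR adjusted p = 2.69e-05). The other called genes were chosen for mention after their values were seen. Higher were Prkaa1 (log2 fold change 0.50), Kdm5a (0.41) and Ppp1ca (0.35). Lower with TMM, but at 0.12 to 0.40 with totals alone, were the REV-ERB corepressor genes Ncor1 (-0.51) and Hdac3 (-0.55), the PER ubiquitin ligase genes Btrc (-0.53) and Fbxw11 (-0.34), and Gsk3a (-0.27). Gsk3a lost its call on leaving out any of control replicates 1, 2 and 3 and knockout replicates 1 and 4 (edgeR adjusted p = 0.0158 to 0.0226).

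Of 15 muscle genes described as clock-controlled, 2 were called higher (Wee1 and Dgat2) and 6 lower (6 and 2 with totals alone), a call in 53.3% of them, near the 44.7% of all genes, and the median of their log2 fold changes was -0.27. Ucp3, an uncoupling protein of muscle mitochondria, had 263 to 477 CPM in control muscle and 19.7 to 72.3 CPM in knockout muscle (log2 fold change -3.11, edgeR adjusted p = 7.21e-05). Dgat2, which makes triglyceride, had 66.8, 73.1, 17.96 and 107 CPM in control muscle and 420, 274, 117 and 228 CPM in knockout muscle (log2 fold change 1.97, edgeR adjusted p = 0.00650). Its lowest library in each group, replicate 3, was also the lowest of its group in the summed adipocyte markers, and its call was lost on leaving out any of control replicates 1 and 2 and knockout replicates 1, 2 and 4 (edgeR adjusted p = 0.0144 to 0.0202). With the mean log2 CPM of the adipocyte markers as a covariate its log2 fold change was 1.17 (edgeR adjusted p = 0.00113), and without the library highest in them in each group it was 1.97 (edgeR adjusted p = 0.0117). Chosen for mention after their values were seen, the other called genes were Pdk4 (log2 fold change -2.82), Tbc1d1 (-1.64), Tcap (-1.10), Slc2a4 (-0.71), Vegfa (-0.36, and 0.31 with totals alone) and Wee1 (0.53). Tcap, Slc2a4 and Tbc1d1 stayed negative but lost their calls with totals alone.

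Clocks in peripheral tissue take time cues from glucocorticoids and from cAMP, which act on Per1 and Per2. Of 15 glucocorticoid receptor targets, a list that holds Per1, 4 were called higher and 4 lower (6 and 2 with totals alone), a call in 53.3% of them, near the 44.7% of all genes. The metallothionein gene Mt2 had 5.23 to 7.92 CPM in control muscle and 204 to 274 CPM in knockout muscle (log2 fold change 5.2, edgeR adjusted p = 3.80e-08), and Tsc22d3 (GILZ) fell from 333 ± 32.6 to 118 ± 20.05 CPM (log2 fold change -1.50, edgeR adjusted p = 7.32e-06). Named after their values were seen, Cdkn1a (3.58), Cebpb (0.75) and Pik3r1 (0.74) were higher, as log2 fold changes. Sgk1 (-1.47), Dusp1 (-1.42) and Klf9 (-0.50, and 0.16 with totals alone), also named so, were lower. With totals alone Sgk1 stayed negative at -0.82 but lost its call (edgeR adjusted p = 0.0111). Klf9 kept its call only without knockout replicate 3, and Pik3r1 only without knockout replicate 3 or 4, when libraries were left out singly (edgeR adjusted p = 0.0105 to 0.0269 for Klf9 and 0.0122 to 0.0255 for Pik3r1 in the other runs).

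Of 13 immediate early and cAMP response genes, 5 were called higher and 3 lower (8 and 1 with totals alone), a call in 61.5% of them beside 44.7% of all genes. Fosb had 0.196 to 0.441 CPM in control muscle and 1.19 to 2.17 CPM in knockout muscle (log2 fold change 2.15, edgeR adjusted p = 0.000376), near the level at which 3 counts stand, 0.119 to 0.242 CPM. The nuclear receptor gene Nr4a1 fell from 239 ± 46.1 to 65.8 ± 15.5 CPM (log2 fold change -1.86, edgeR adjusted p = 1.87e-05). Egr1 (1.92), Sik1 (1.79), Atf3 (1.74) and Junb (1.52) were the other genes called higher and Crem (-0.98, not called with totals alone) and Jun (-0.57, and 0.10 with totals alone) the other genes called lower, as log2 fold changes, all named after their values were seen.

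Markers of some cell types differed between the groups too, beside a call in 44.7% of all genes (23.6% higher and 21.1% lower). The share called was 87.5% for fibre, 83.3% for endothelial, 75% for satellite cell and 60% for smooth muscle and pericyte markers. It was 50% for fibroblast markers, near that of all genes, 16.7% for macrophage markers and 0% for adipocyte and for Schwann cell markers. Of 8 fibre markers, 6 were called lower and Myh1 higher. Endothelial markers were lower for 5 of 6 (283 to 422 CPM summed in the controls, 205 to 231 CPM in knockout muscle), fibroblast markers for 3 of 6 (1322 to 1857 against 547 to 810 CPM) and smooth muscle and pericyte markers for 3 of 5 (389 to 630 against 357 to 412 CPM). Of 6 macrophage markers, Cd68 was called higher (39.6 to 96.5 CPM summed in the controls, 73.2 to 131 CPM in knockout muscle), and of 4 satellite cell markers, 2 were higher and 1 lower (28.5 to 31.9 against 38.7 to 54.1 CPM). None of 8 adipocyte markers (253 to 1506 against 721 to 2621 CPM) and none of 5 Schwann cell and nerve markers (36.6 to 120 against 57.1 to 94.4 CPM) was called by edgeR, where 2 and 1 of them had an unadjusted p under 0.05 and DESeq2 and limma called none either. With totals alone, edgeR called 6 fibre markers lower and 1 higher, no endothelial marker in either direction (0 also at an unadjusted p under 0.05), 1 fibroblast marker higher and 1 lower, and 1 smooth muscle, 4 macrophage, 3 satellite cell, 1 adipocyte and 1 Schwann cell marker higher. None of these markers was at 0 in any library. With the mean adipocyte marker level as a covariate, and without the library highest in those markers in each group, Arntl, Npas2, Per2, Per3, Cry2 and Nr1d1 kept their direction and their call. Cry1 kept its direction but lost its call in these 2 runs (edgeR adjusted p = 0.0236 and 0.0158). The part of any cell type in the clock gene values was not tested.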

How the data were processed

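RNA-seq of QF from 4 knockout and 4 control mice was analysed. Per the labels and the methods, polyadenylated RNA was captured and made into NEBNext Ultra II Directional libraries; RNA was extracted with TRIzol per the labels and with a miRNAeasy kit per the methods. The authors demultiplexed with bcl2fastq 2.20.0.422, trimmed with cutadapt, mapped to GRCm38 with STAR 2.5.4b, counted read pairs on exons with Rsubread, left out duplicate, chimeric and multimapping pairs and those with MAPQ under 10, and removed genes with fewer than 50 reads in total. The deposited values used were these raw counts per gene, and the exon width. 8 FPKM columns and 6 columns of the authors' DESeq2 1.32.0 output (mean, fold change, error, statistic and p-values) were not used. The use of strand in counting and the annotation release are not given in the sources used here.

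All 14012 genes were tested with edgeR 4.0.16 (glmQLFit, glmQLFTest, TMM) in R 4.3.3, with no covariate, p-values adjusted by Benjamini-Hochberg over all genes, and calls made at an adjusted p under 0.01. SEs are the log2 fold change divided by the root of F. The biological coefficient of variation was 0.157, and replicates of a group differed by more than counting error (17.2 to 42.7 for chi-square over its degrees of freedom). Each library is a separate mouse per the labels. Alternatives used DESeq2 1.42.0, limma 3.58.1, other scalings, filters, covariates and libraries left out. The procedure was tested on simulated data with 200 changed genes. That is far fewer than were called here, so the test does not check the scaling. Promoter windows came from RefSeq; 22 of 26 windows ended in a GENCODE transcript of their gene on the same strand.

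The members and lists were chosen with earlier results of these data known, and a few listed genes are not reported here. Named genes were the members, the outputs and secondary loop, genes overlapping a member, the 5 genes most like Arntl and like Nr1d1, and Grpel1. From each other list that is no cell type list came the called genes with the largest and smallest log2 fold change. The fibre markers were named as a whole list. Any other gene was named after its values were seen. The text says so at each, except where the markers Myh1 and Cd68 are given as called.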

Additional observations from a re-analysis of the deposited data

Results flagged for a closer look

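In 5 of 114 groups of 4 libraries, 1 library stood apart from the other 3 by a share of the group's whole range above Dixon's critical value, where chance gives about 1 in 20. None of the 5 was a clock gene. Fosb in the knockouts had a share of 0.876, with 2.17 CPM in knockout replicate 1 and 1.19 to 1.31 CPM in the others. D930015M05Rik, which overlaps Cry2, had 0.934 in the controls, with 0.501 CPM in control replicate 3 and 0.315 to 0.327 CPM in the others. Tcap had 0.923 in the knockouts, with 1120 CPM in knockout replicate 3 and 675 to 709 CPM in the others. Tbc1d1 had 0.962 in the controls, with 113 CPM in control replicate 4 and 46.8 to 49.3 CPM in the others. Egr1 had 0.869 in the controls, with 9.95 CPM in control replicate 3 and 4.91 to 5.57 CPM in the others.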

How the results depend on the processing

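Arntl, Npas2, Nr1d1, Per2, Per3 and Cry2 kept their direction and their call in all alternatives that held them (21, or 20 for Npas2, which a minimum mean count of 100 removed together with Arntl2, Fosb and D930015M05Rik). Cry1 lost its call in 8 of 21, at adjusted p of 0.0138 to 0.0274. Scaling by library totals alone changed most, since it moved the log2 fold change of the median gene from 0.07 to 0.73. On that scale 7 clock genes were called higher, 0 outputs lower, 15 modifiers higher and 1 lower, 6 muscle clock-controlled genes higher and 2 lower, 2 glucocorticoid targets lower, 8 immediate early genes higher and 1 lower, and 8498 of all genes higher and 873 lower. Log2 fold changes turned positive there for Clock (0.61), Nr1d2 (0.39), Dbp (0.13), Tef (0.22), Hlf (0.013), Bhlhe40 (0.31), Arntl2 (0.51), Thra (0.43), Grpel1 (0.61), Gsk3a (0.40), Btrc (0.14), Fbxw11 (0.33), Ncor1 (0.16), Hdac3 (0.12), Vegfa (0.31), Klf9 (0.16) and Jun (0.10). With adipocyte markers as a covariate 3 outputs were lower, and without the library highest in those markers in each group (control replicate 4, knockout replicate 1) 3 outputs were lower and 0 muscle clock-controlled genes higher. The cause was not tested. Without control replicate 3 and knockout replicate 3, an alternative chosen after seeing the data, 1 output was higher and 3 lower and 1 muscle clock-controlled gene higher.

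Leaving out each library in turn gave 3 to 4 clock genes higher and 3 to 4 lower, 1 to 2 outputs higher (1 without knockout replicate 4) and 3 to 6 lower (3 without control replicate 3), 1 to 2 muscle clock-controlled genes higher, and 2596 to 3005 genes higher and 2600 to 2937 lower in all. The replicate numbers are shared by the groups, but the deviations of same-numbered libraries correlated at 0.17, 0.01, 0.49 and 0.16. Control replicates 1, 3 and 4 correlated best with the knockout of their own number and control replicate 2 with knockout replicate 1 (0.15), and as not every pair was above 0.1 the numbers were not taken as pairs. With the replicate number as a block, 6123 genes were called in place of 6265, 3 clock genes were higher and 3 lower, Cry1 was not called (adjusted p = 0.0146 in edgeR) and Dbp was (adjusted p = 0.00134 in edgeR). DESeq2 called 6731 genes. The low counts of Npas2, 14 to 43, limit the precision of its level, and intervals from 4 mice per group limit the rest.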
